A study of Mus musculus with 24 samples.

Results

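Gene expression was compared between lungs of mice given the agent that the labels call Ly, without irradiation, and lungs of untreated mice. The comparison rests on 4 single-colour arrays of the 24 in the series, chosen by their sample titles: 2 Ly lungs and 2 untreated lungs, described by the series as biological replicates. All of this tissue was frozen at 24 days of a time scale that the series counts from irradiation, although none of these 4 lungs was irradiated. The labels give neither the full name, the dose and the schedule of Ly nor the strain, the age and the vehicle, and the controls are labelled only as untreated. The other 20 arrays hold 10 groups of 2: Imatinib, Su, Ly+Imatinib and Ly+Su in unirradiated lung, and IR (irradiated), IR+Ly, IR+Imatinib, IR+Su, IR+Ly+Imatinib and IR+Ly+Su. Imatinib blocks a set of tyrosine kinases that includes ABL, KIT and the receptors for PDGF. The series title names TGF-beta and PDGF signalling as the targeted pathways, and the question for Ly given alone is which transcripts of normal lung differ from those of untreated lung.

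TGF-beta ligands are secreted in a latent complex with LTBP proteins, which holds them in the matrix until integrins or proteases release them. The active ligand joins type II and type I receptor kinases, which phosphorylate SMAD2 and SMAD3; with SMAD4 these enter the nucleus and switch on genes such as Ccn2 and the feedback inhibitors Smad7 and Skil. In lung the pathway is known for driving collagen deposition by fibroblasts and for restraining leukocytes and epithelial growth.

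Levels are given as the log2 of the processed array intensity relative to the 75th percentile of that array, so that 0 stands for that percentile on every array. Such a level compares one gene between arrays and does not compare genes with each other. All 4 arrays lay on 1 slide, the Ly lungs at positions 3 and 4 and the untreated lungs at positions 1 and 2, so that position on the slide and treatment cannot be told apart. Of the spots, 66.5% and 63.2% were well above background on the Ly arrays, and 62.2% and 63.5% on the untreated arrays. Across the 20409 genes tested, the levels correlated with r = 0.9837 between the Ly arrays and r = 0.9884 between the untreated arrays. The 4 correlations between a Ly and an untreated array, 0.9849 to 0.9873, lay within that span. With 2 arrays a group, the number of arrays limits the precision. The surfactant gene Sftpc of alveolar type II cells, at log2 levels of 8.72 and 9.15 on the Ly arrays and 9.12 and 9.85 on the untreated arrays, and the club cell secretoglobin Scgb1a1, at 7.98 and 8.60 against 8.74 and 8.94, marked the tissue as lung. Xist, the transcript of the inactive X chromosome, was well above background on all 4 arrays, and the Y-linked Ddx3y on none of them.

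Genes of TGF-beta signalling and its targets had median differences close to 0 between Ly and untreated lung, and none passed the test. A gene was called when its p from limma, adjusted by Benjamini and Hochberg over all 20409 genes, was under 0.05. None of 31 measured target genes passed, against 0.0049% of all genes tested. At an unadjusted p under 0.05 there was 1 target, Zeb1, against 5.68% of all genes. The median log2 difference of the targets, Ly minus untreated, was -0.02 and that of all genes -0.03. Quantile normalization and another background correction put the median of the targets at 0.02 and 0.07, so that it has no settled sign. With that background correction the median of all genes was -0.25, below that of the targets. List medians given below for this correction are to be read beside that value.

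Ccn2, a matricellular growth factor of fibroblasts, had log2 levels of 4.80 and 4.49 in Ly lung, against 4.95 and 4.84 in untreated lung. Both Ly values were below both untreated values, by 0.25 on average, with an interval of -0.81 to 0.31 and an adjusted p of 0.97 in limma. Smad7, the inhibitory SMAD that TGF-beta induces, had -0.20 and -0.60 in Ly lung, against -0.22 and -0.22 in untreated lung. Skil, a repressor of SMAD complexes, had 0.91 and 0.68 in Ly lung, against 0.95 and 0.74 in untreated lung. For both feedback genes the groups overlapped, and the intervals were -0.55 to 0.19 for Smad7 and -0.43 to 0.33 for Skil, so that a difference of 2-fold lay outside them.

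Pmepa1, another feedback inhibitor of receptor signalling, varied more within each group than between the groups. Its log2 levels were -0.90 and 0.08 on the Ly arrays and -1.34 and -0.30 on the untreated arrays, and the interval of its difference, -0.88 to 1.70, was wide. Tgfbi, a secreted matrix protein named for its induction by TGF-beta, had 4.81 and 3.84 in Ly lung, against 3.65 and 4.02 in untreated lung; 1 Ly lung was the highest of the 4 and the groups overlapped. Zeb1, a transcription factor of the mesenchymal state, had 2.00 and 1.97 in Ly lung, against 1.17 and 1.96 in untreated lung. Its difference of 0.42 ± 0.18 (SE) came almost wholly from the first untreated lung, and limma gave an adjusted p of 0.87. The matrix-bound latency protein gene Ltbp2 and the BMP and TGF-beta target Id1, which encodes an inhibitor of differentiation factors, overlapped between the groups, with differences of 0.12 and -0.24. Among the 31 targets, the Ly arrays lay above both untreated arrays for 4 genes and below them for 6. Over all genes tested this held for 13.1% above and 18.6% below. The interval lay within 2-fold in both directions for 21 of the 31 targets, against 73.6% of all genes. It lay within 1.5-fold for 6 of them, against 43.1% of all genes.

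Of the ligands, Tgfb1, which encodes the main ligand of injured lung, stood a little higher in Ly lung. It had log2 levels of 0.62 and 0.50 on the Ly arrays, against 0.07 and 0.26 on the untreated arrays, a difference of 0.39 ± 0.20 (adjusted p = 0.88 in limma). The groups did not overlap, but the interval, -0.03 to 0.82, included 0. Tgfb2 and Tgfb3, the other 2 ligand isoforms, overlapped between the groups and differed by -0.06 and 0.07. The ligand-binding type II receptor Tgfbr2 had 4.59 and 4.66 in Ly lung, against 4.54 and 4.54 in untreated lung. Its signalling partner Tgfbr1 had 0.37 and 0.71 in Ly lung, against 0.44 and 0.60 in untreated lung. The probes reported for these kinases had narrow limits, -0.21 to 0.38 for Tgfbr2 and -0.39 to 0.43 for Tgfbr1. Another probe of Tgfbr2 well above background measured a difference of 0.99, outside these limits, against 0.08 for the one reported. The narrow limits thus hold for the reported probe of Tgfbr2 and not for the gene as a whole. The co-receptors Tgfbr3 and Eng, the endothelial type I receptor Acvrl1 and the transducer Smad3 differed by between -0.10 and 0.16, all with overlapping groups.

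None of the 24 measured ligand, receptor and transducer genes passed the test, and their median difference was 0.02. The smallest p was that of Itgb8, whose integrin subunit helps to release latent TGF-beta. It had -5.22 and -4.39 on the Ly arrays, against -5.56 and -5.49 on the untreated arrays, where it was not well above background, at least 1.25-fold higher in Ly lung (adjusted p = 0.85 in limma). Dcn, a proteoglycan that binds TGF-beta, gave the largest fitted difference of this group, 1.36, but was not well above background on any of the 4 arrays. The 21 genes of the related BMP pathway had a median difference of -0.05, and none passed. Hey1, a target shared by BMP and Notch signalling, had 3.63 and 3.26 in Ly lung, against 4.38 and 3.56 in untreated lung. Its second Ly array was the lowest and its first untreated array the highest of the 4, with overlapping groups in between (difference -0.52, unadjusted p = 0.041 in limma).

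**Figure D1:**
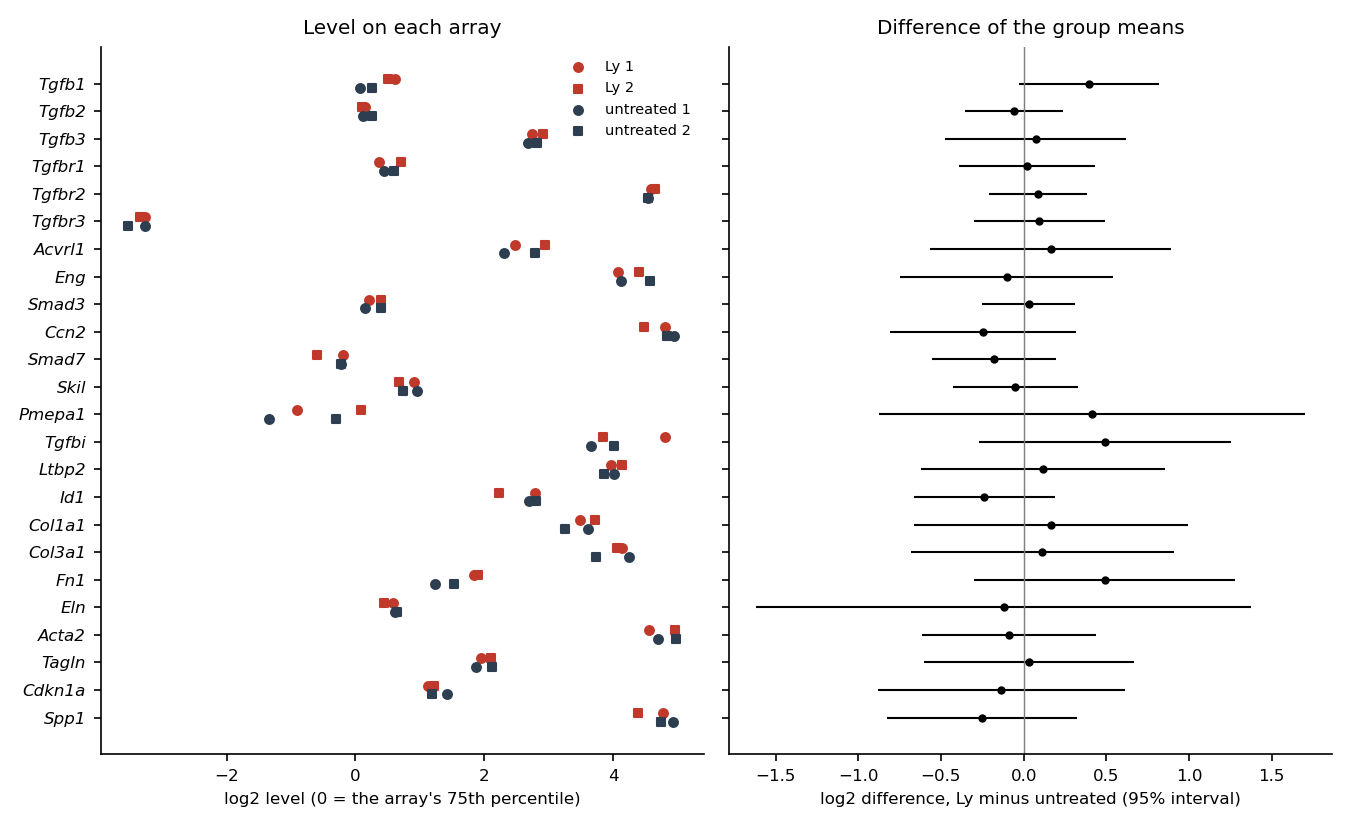
The left panel plots the log2 level of 24 genes of TGF-beta signalling, matrix and response on the 2 Ly arrays (red) and the 2 untreated arrays (dark blue), with circles for replicate 1 and squares for replicate 2. The right panel plots the difference, Ly minus untreated, with its 95% interval from limma; all 24 intervals include 0, and that of Tgfb1 runs from -0.03 to 0.82.

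Matrix genes, among the best known products of TGF-beta in lung fibroblasts, gave no call either. The fibrillar collagen genes Col1a1 and Col3a1 had log2 levels of 3.49 and 3.72 and of 4.15 and 4.06 on the Ly arrays, against 3.61 and 3.26 and 4.24 and 3.74 on the untreated arrays. For both genes the groups overlapped, and the differences were 0.17 (interval -0.66 to 1.00) and 0.11 (interval -0.68 to 0.91). In 10 of the 11 measured collagens the difference was above 0, against 45.4% of all genes, but in none of them did the Ly arrays stand apart from the untreated arrays. The median collagen difference of 0.15 was -0.01 without the second untreated array. Fn1, fibronectin, had 1.84 and 1.90 in Ly lung, against 1.23 and 1.53 in untreated lung. Both Ly values were higher, yet the interval of the difference ran from -0.30 to 1.28. Elastin, Eln, had 0.59 and 0.44 in Ly lung, against 0.61 and 0.65 in untreated lung.

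Mmp12, the macrophage elastase, had the smallest p among 25 matricellular, elastic and cross-linking matrix genes, none of which passed. Its log2 levels were -3.89 and -3.53 on the Ly arrays, against -4.64 and -5.71 on the untreated arrays, with 1 of the untreated arrays not well above background. The difference was 1.47 ± 0.42, with an adjusted p of 0.76 in limma. The median of the 25 genes was 0.03. None of 12 genes of contractile smooth muscle and myofibroblasts passed, and their median difference was -0.13, or 0.03 with the other background correction. Acta2, smooth muscle actin, had 4.55 and 4.96 in Ly lung, against 4.70 and 4.98 in untreated lung, and Tagln, transgelin, had 1.95 and 2.11, against 1.87 and 2.13; both overlapped. The PDGF family and the kinases that imatinib binds, 14 genes, had a median of -0.06 with none passing. The smallest p in that list was that of Csf1, the macrophage growth factor, at 1.90 and 1.80 in Ly lung, against 1.42 and 1.60 in untreated lung (difference 0.34, adjusted p = 0.85 in limma). The p53 target and cell cycle inhibitor Cdkn1a had 1.13 and 1.22 in Ly lung, against 1.43 and 1.19 in untreated lung. Its 20-gene p53 list had a median of -0.09, or 0.05 with the other background correction, and none of it passed.

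Across the whole array 1 gene of 20409 passed, 0.0049%. This transcript, named only by the identifier ENSMUST00000076729 on the array and without a gene symbol in the annotation used here, was higher in Ly lung. Its log2 levels were -4.48 and -3.15 on the Ly arrays, against -7.33 and -7.36 on the untreated arrays. It was well above background on both Ly arrays and on none of the other 22 arrays of the series, at least 2.49-fold higher in Ly lung (fitted difference 3.53 ± 0.42, adjusted p = 0.0148 in limma). In the other 8 unirradiated lungs its level spanned -7.78 to -6.51. With the other background correction its difference was -0.71, against a median of -0.25 over all genes, and without the second Ly array its adjusted p was 0.058. No gene passed in the lower direction. At an unadjusted p under 0.05, limma counted 1159 genes, 5.68% of those tested: 602 higher in Ly lung (2.95%) and 557 lower (2.73%).

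The precision behind these counts was moderate. The median SE of a difference was 0.22, and the median half-width of its 95% interval was 0.47, which is 1.39-fold. For 15014 genes, 73.6% of those tested, the interval excluded a difference of 2-fold in either direction, and for 43.1% one of 1.5-fold. The median absolute difference between the group means was 0.16, against 0.26 between the 2 Ly arrays and 0.21 between the 2 untreated arrays. The number of calls was small in most settings but depended on single arrays: it was 33 without the first and 41 without the second untreated array, 20 without the first Ly array and 0 without the second, and 0 when the 4 arrays were fitted without the other groups.

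**Figure D2:**
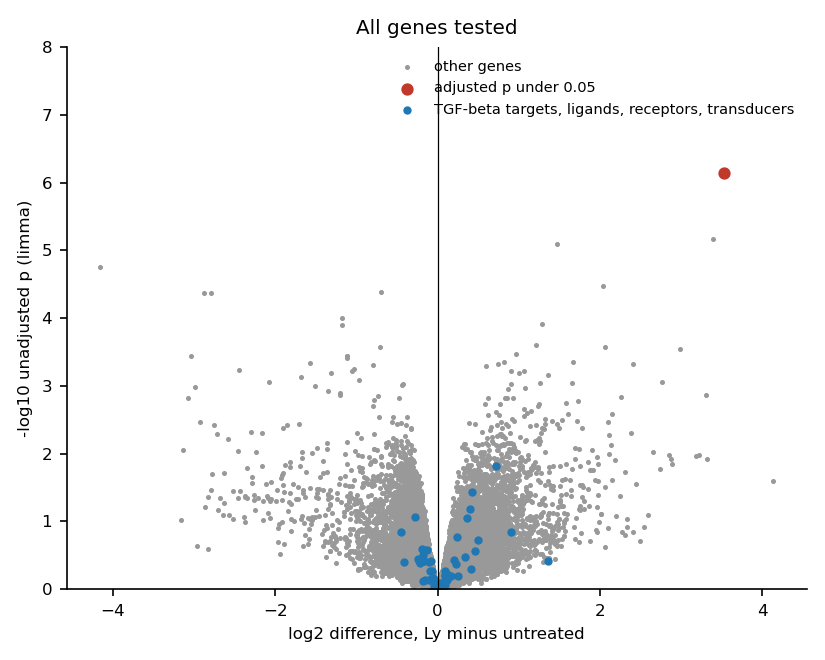
Each point is 1 of 20409 genes, with the log2 difference, Ly minus untreated, on the x axis and -log10 of the unadjusted limma p on the y axis. The single called transcript is in red at 3.53. Genes of TGF-beta targets, ligands, receptors and transducers, in blue, have medians of -0.02 (targets) and 0.02 (the others). Among them Dcn lies farthest to the right at 1.36. The median of the targets changes sign with another background correction, where that of all genes is -0.25.

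The genes with a symbol nearest to the threshold are given as values, since none of them passed. Kif15, a kinesin of the mitotic spindle, had log2 levels of -4.23 and -3.93 in Ly lung, against -5.39 and -5.71 in untreated lung, where it was not well above background. Its difference of 1.47 ± 0.22, at least 2.07-fold, had an adjusted p of 0.056 in limma. Gpr34, a lysophospholipid receptor of microglia and macrophages, had -3.03 and -3.06 in Ly lung, against -5.89 and -4.29 in untreated lung. The untreated lungs were the unusual ones for Gpr34, since the other 8 unirradiated lungs spanned -3.42 to -2.62. Ptgdr, a prostaglandin D2 receptor, went the other way. It had -3.67 and -4.23 in Ly lung, against -6.68 and -7.18 in untreated lung and -7.23 to -5.93 in the other 8, at least 2.27-fold higher in Ly lung.

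Several of these genes are known from leukocytes. Lsp1, an actin-binding protein of leukocytes, had 2.51 and 2.21 in Ly lung, against 1.18 and 1.62 in untreated lung (difference 0.96 ± 0.21, adjusted p = 0.38 in limma). Fmnl1, a formin of haematopoietic cells, had -1.78 and -2.09 in Ly lung, against -3.41 and -2.88 in untreated lung. Rab7b, a GTPase of late endosomes, Gm2a, the activator of ganglioside breakdown in lysosomes, and Cbl, a ubiquitin ligase of receptor signalling, were also higher on both Ly arrays, by 0.74, 0.60 and 1.06. Rbbp4, a histone-binding subunit of chromatin complexes, differed by 0.82, but its 4 probes ranged from -1.02 to 1.55. The odorant receptor Olfr1056 had -5.20 and -3.75 in Ly lung, against levels not well above background in untreated lung, at least 1.57-fold.

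On the lower side, Olfr888, another odorant receptor, had log2 levels of -7.80 and -7.09 on the Ly arrays, not well above background, against -3.81 and -2.77 on the untreated arrays. It was at least 3.85-fold lower in Ly lung, with an adjusted p of 0.090 in limma, but the other 8 unirradiated lungs also lay at -7.89 to -7.26. Nmrk2, a nicotinamide riboside kinase of striated muscle, had -6.02 and -6.54 in Ly lung, not well above background, against -3.55 and -3.25 in untreated lung, at least 3.58-fold lower. Nppa, the atrial natriuretic peptide gene of heart muscle, had -4.65 and -4.13 in Ly lung, against -1.17 and -1.53 in untreated lung (difference -3.04 ± 0.65, adjusted p = 0.38 in limma). Both are muscle genes. The median of the other 8 unirradiated lungs was -4.18 for Nmrk2, between the groups, and -4.23 for Nppa, within the range of the Ly lungs and below both untreated lungs. Tm4sf4, a tetraspan membrane protein, Rasal2, a RAS GTPase-activating protein, Aspg, an asparaginase, and Wdr72, known for enamel formation, were lower on both Ly arrays by 1.05 to 1.18. Setdb2, a histone methyltransferase, and the uncharacterised A930038B10Rik were not well above background in Ly lung, at least 1.39-fold and 2.66-fold lower. Evx2, a homeobox gene, was not well above background on any of the 4 arrays.

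Gene lists of lung cell types and pathways held 675 measured genes, and none of them passed the test in limma. At an unadjusted p under 0.05 there were 39 higher and 34 lower, 5.78% and 5.04%, against 2.95% and 2.73% of all genes tested. The lists that stood higher in Ly lung were those of leukocytes and inflammation. The medians of the dendritic and the cytokine and chemokine lists turned below 0 with the other background correction. Both stayed above the median of all genes there, -0.25. Among the lists with a median difference below 0 were those of airway epithelium, heart muscle, erythroid cells and glucocorticoid response. For the erythroid and the club and goblet cell lists the mean levels of Ly and untreated lungs overlapped. In whole lung, more cells of a type and more RNA per cell cannot be told apart.

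For macrophages, 13 of 17 markers of monocytes and interstitial macrophages were higher on both Ly arrays than on both untreated arrays, against 13.1% of all genes, and 2 had an unadjusted p under 0.05. Their median difference was 0.54, or 0.29 with the other background correction. Cd68, a lysosomal glycoprotein of macrophages, had log2 levels of 1.27 and 1.46 on the Ly arrays, against 0.48 and 0.79 on the untreated arrays. Adgre1, which encodes F4/80, had 2.26 and 2.18 in Ly lung, against 1.63 and 1.60 in untreated lung, and the complement gene C1qc had 2.13 and 2.88, against 2.05 and 1.87. The mean level of the list was 0.91 and 0.90 on the Ly arrays, against 0.41 and 0.52 on the untreated arrays; the other 8 unirradiated lungs spanned 0.28 to 0.65, below both Ly lungs. Among 16 markers of alveolar macrophages, 7 were higher without overlap, against 13.1% of all genes, and 13 had a difference above 0, against 45.4%. Their median was 0.29, or 0.18 without the second Ly array. Marco, a scavenger receptor that binds bacteria and particles, had 3.94 and 4.21 in Ly lung, against 3.03 and 1.91 in untreated lung and 2.45 to 3.71 in the other 8 (difference 1.61 ± 0.44, adjusted p = 0.73 in limma). Siglecf, the surface marker of these cells, had -0.95 and -0.76 in Ly lung, against -1.15 and -1.15 in untreated lung.

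Lymphocyte markers also lay higher in Ly lung. Of 22 markers of B cells and plasma cells, 19 were higher on both Ly arrays, against 13.1% of all genes. None was lower on both, against 18.6% of all genes. The median difference was 0.53, or 0.33 without the second untreated array and 0.31 with the other background correction. Pax5, the transcription factor of B cell identity, had log2 levels of -2.52 and -2.29 in Ly lung, against -3.75 and -3.77 in untreated lung (difference 1.36 ± 0.31, adjusted p = 0.41 in limma). The mean level of the B cell list was 0.02 and 0.28 in Ly lung and -0.27 and -0.56 in untreated lung. In the other 8 unirradiated lungs it spanned 0.04 to 0.76, above both untreated lungs and just above the first Ly lung. Of 29 T and NK cell markers, 28 had a difference above 0, against 45.4% of all genes. Higher without overlap were 15, against 13.1% of all genes. The median was 0.35, or 0.09 with the other background correction, where that of all genes was -0.25. The mean level of the list was -1.11 and -1.22 in Ly lung and -1.47 and -1.60 in untreated lung. In the other 8 unirradiated lungs it spanned -1.44 to -0.60, above both untreated lungs and across both Ly lungs. Cd3g, a chain of the T cell receptor complex, had -0.05 and -0.34 in Ly lung, against -0.63 and -1.18 in untreated lung; Cd8a had -0.93 and -1.25, against -1.29 and -1.21, and overlapped. Dendritic cell markers, 14 genes, had a median of 0.43, or -0.03 with the other background correction, 0.72 without the first Ly array and 0.09 without the second; Flt3, a cytokine receptor that these cells need, had -4.31 and -3.54 in Ly lung, against -5.05 and -4.56 in untreated lung.

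Of 27 cytokines and chemokines, 26 had a difference above 0, against 45.4% of all genes. Higher on both Ly arrays were 12, against 13.1% of all genes. In limma 5 had an unadjusted p under 0.05, all higher in Ly lung, against 2.95% of all genes. The median was 0.52, and -0.16 with the other background correction, where the median of all genes was -0.25. The count of 5 was 1 without the first untreated array. Ccl9, a chemokine that attracts myeloid cells, had log2 levels of 1.72 and 1.45 in Ly lung, against 0.20 and 0.80 in untreated lung (difference 1.09 ± 0.34, adjusted p = 0.85 in limma). Ccl6, a related chemokine, had 5.26 and 5.62 in Ly lung, against 4.46 and 4.63 in untreated lung. Cxcl13, which draws B cells into lymphoid tissue, had -1.34 and -1.21 in Ly lung, against -1.77 and -3.00 in untreated lung. These 3 chemokines were higher on both Ly arrays, whereas Il1b, an interleukin released by activated myeloid cells, was the highest on 1 Ly array and the lowest on the other, at 2.63 and -1.25, against -0.97 and 1.34.

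Of 17 acute-phase genes, 10 were higher on both Ly arrays, against 13.1% of all genes. In limma 6 had an unadjusted p under 0.05, all higher in Ly lung, against 2.95% of all genes. The median was 0.66, or 0.34 with the other background correction. The count of 6 was 4 without the first untreated array and 0 without the second. Saa3, serum amyloid A of macrophages and epithelium, had log2 levels of 0.60 and 1.24 in Ly lung, against -0.85 and -1.25 in untreated lung (difference 1.97 ± 0.79, adjusted p = 0.85 in limma). Lcn2, an iron-scavenging lipocalin, had 1.16 and 2.54 in Ly lung, against 0.59 and 0.37 in untreated lung. Complement C3 had 6.77 and 7.38 in Ly lung, against 6.72 and 6.60 in untreated lung. The second Ly lung carried most of this, being the highest of the 12 unirradiated lungs for 11 of the 17 genes, and without it the median was 0.34, with 1 gene at an unadjusted p under 0.05. Chil1, a chitinase-like protein, which had the smallest p of the list, overlapped: 5.13 and 6.08, against 5.18 and 4.10.

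Neutrophil markers divided the 2 Ly lungs instead of the groups. All 13 were highest in the first Ly lung, not only among these 4 arrays but among the 12 unirradiated arrays. S100a8, a calprotectin subunit, had log2 levels of 5.60 and 1.70 on the Ly arrays, against 2.40 and 3.60 on the untreated arrays. Cxcr2, the receptor for neutrophil chemokines, had 1.96 and -2.04 in Ly lung, against -1.66 and 0.25 in untreated lung. The mean level of the list was 2.75 and -1.09 in Ly lung and -0.07 and 0.61 in untreated lung, with -1.20 to 1.09 in the other 8. The summed level, as a multiple of the 75th percentile, was 328 and 66.5 in Ly lung and 87.0 and 209 in untreated lung. The median difference was 0.66 with all arrays, the value of Ltf, lactoferrin, which is also the median of the acute-phase list. It was -1.16 without the first Ly lung and 2.62 without the second. The part of these cells in the leukocyte and inflammatory values was not tested; the monocyte list had a median of 0.56 without the first Ly lung and 0.31 without the second.

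**Figure D3:**
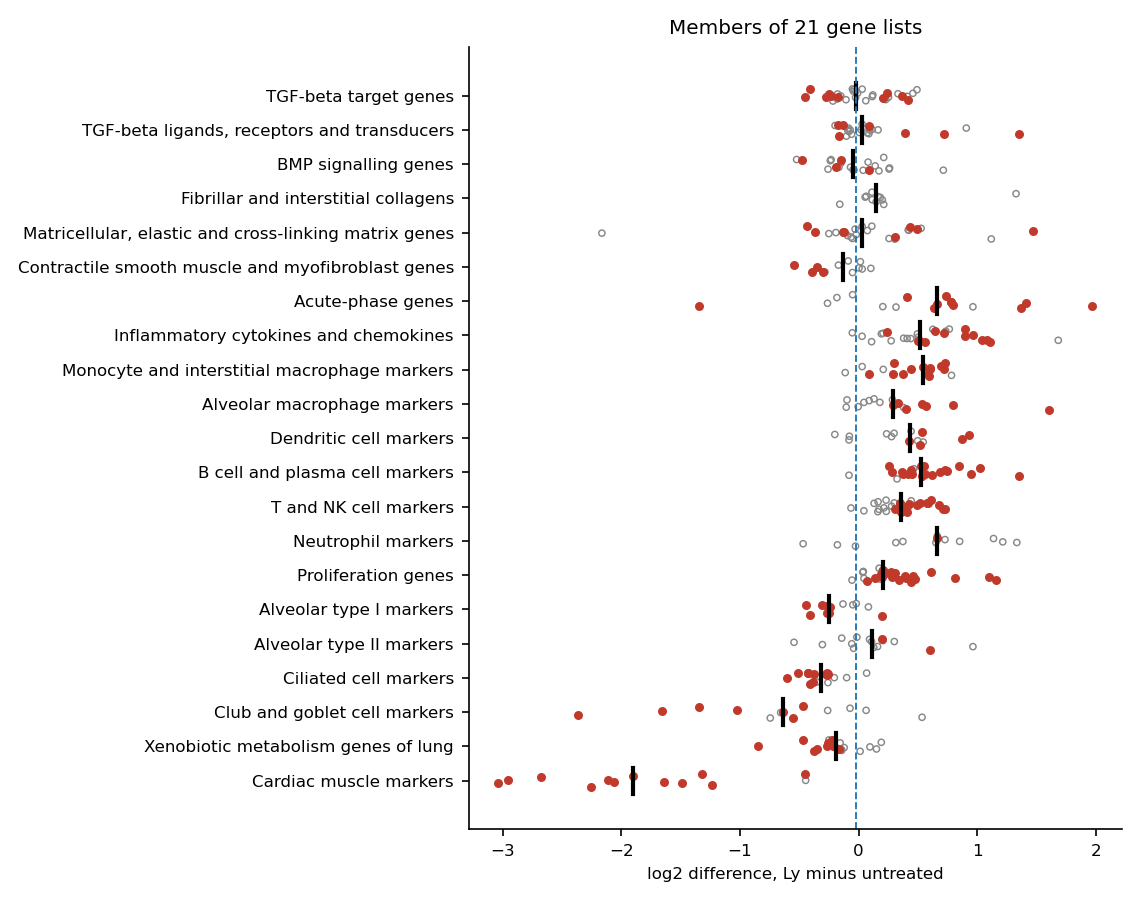
Each point is a member of 1 of 21 gene lists, placed at its log2 difference, Ly minus untreated. Filled red points are genes whose Ly arrays lie apart from the untreated arrays, open points overlap, black bars are list medians and the dashed line is the median of all genes, -0.03; the bars run from -1.90 for cardiac muscle to 0.66 for acute-phase and neutrophil genes. With another background correction the medians of the TGF-beta target, dendritic, inflammatory, proliferation, alveolar type I and contractile lists change sign. There the median of all genes is -0.25.

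Proliferation genes were higher in many members by small amounts. With the other background correction their median was below 0 and close to that of all genes. Of 29 genes, 28 had a difference above 0, against 45.4% of all genes. Higher on both Ly arrays were 20, against 13.1% of all genes. The median was only 0.21, and -0.29 with the other background correction. Mki67, the marker of cycling cells, had log2 levels of -0.03 and -0.17 in Ly lung, against -0.32 and -0.67 in untreated lung. Bub1b, a spindle checkpoint kinase, had -2.52 and -1.97 in Ly lung, against -3.44 and -2.68 in untreated lung (difference 0.82 ± 0.32, adjusted p = 0.85 in limma). The replication clamp Pcna overlapped, with 3.31 and 3.07 against 3.21 and 3.09.

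The lists of airway genes had medians below 0 in Ly against untreated lung. Of 16 ciliated cell markers, 15 had a difference below 0 and 1 had one above 0, against 45.4% of all genes above 0. Lower on both Ly arrays were 11, against 18.6% of all genes. In limma 5 had an unadjusted p under 0.05, all lower in Ly lung, against 2.73% of all genes. The median was -0.32, or -0.12 with the other background correction, where that of all genes was -0.25. The count of 5 was 0 without the first Ly array and 1 without the first untreated array. Foxj1, the transcription factor that commits cells to motile cilia, had log2 levels of 2.60 and 2.54 in Ly lung, against 3.08 and 2.92 in untreated lung (difference -0.43, adjusted p = 0.87 in limma). Ccdc39, which builds the axoneme, had -1.91 and -1.47 in Ly lung, against -1.18 and -0.99 in untreated lung. The mean level of the ciliated list in the other 8 unirradiated lungs spanned 1.40 to 2.04, wider than from the Ly lungs, 1.46 and 1.65, to the untreated lungs, 1.93 and 1.81.

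Club and goblet cell markers, 13 genes, had a median of -0.64, with 7 lower on both Ly arrays, against 18.6% of all genes. The mean level of the list overlapped, at 1.46 and 2.58 in Ly lung and 2.53 and 2.94 in untreated lung. In the other 8 unirradiated lungs it spanned 0.09 to 3.81, across both groups. Scgb1a1, given above, was lower on both Ly arrays by 0.55 ± 0.19. Cyp2f2, the cytochrome of club cells, had 7.19 and 7.44 in Ly lung, against 7.55 and 8.01 in untreated lung. In the other 8 unirradiated lungs Scgb1a1 spanned 8.10 to 8.49 and Cyp2f2 7.15 to 7.51, below both untreated lungs for each gene. The Ly lungs lay within that range for Cyp2f2 and on either side of it for Scgb1a1. Bpifa1, a secreted airway defence protein, had 0.83 and 1.05 in Ly lung, against 3.11 and 3.51 in untreated lung, a difference of -2.37 with an unadjusted p of 0.10 in limma. The first Ly lung was the lower one for most of the list: without it the median was -0.25 and without the second it was -1.32. Of 12 alveolar type I markers, 7 were lower on both Ly arrays, against 18.6% of all genes. Their median was -0.25, or 0.01 with the other background correction. Emp2, a membrane protein of these cells, had 5.98 and 5.87 in Ly lung, against 6.28 and 6.19 in untreated lung, whereas Ager, their receptor for glycated proteins, overlapped at 5.46 and 5.53 against 5.49 and 5.60. Alveolar type II markers had a median of 0.11, or 0.24 without the first Ly array and -0.05 without the second. They overlapped in 13 of 15 genes. The other 2 were higher on both Ly arrays, against 13.1% of all genes, and none was lower, against 18.6%. The second Ly lung was the highest of the 12 unirradiated lungs for 10 of the 15.

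Heart muscle genes gave the largest list difference. All 13 measured cardiac markers had a difference below 0, whereas 45.4% of all genes had one above 0. Lower on both Ly arrays were 12, against 18.6% of all genes. In limma 7 had an unadjusted p under 0.05, all lower in Ly lung, against 2.73% of all genes. The median was -1.90. Without the first Ly array the median was -1.09, without the second -2.95, and the count of 7 was 1 without the first Ly or the second untreated array, 3 without the first untreated array, and 1 with the 12 unirradiated arrays alone or with array weights. Myl7, the atrial light chain of myosin, had log2 levels of 1.31 and 2.69 in Ly lung, against 4.25 and 4.26 in untreated lung. Tnnt2, cardiac troponin T, had 0.52 and 1.61 in Ly lung, against 2.70 and 2.71 in untreated lung. The summed level of the list was 11.3 and 25.0 in Ly lung and 47.3 and 57.1 in untreated lung, and it ran from 8.95 to 83.9 in the other 8 unirradiated lungs, which spanned both groups. Cardiac muscle surrounds the pulmonary veins of the mouse and lies beside the lung at dissection, and how much of it each piece held was not tested. Skeletal muscle markers had a median of -0.28; Myh8, a perinatal myosin, had -1.49 and -0.29 in Ly lung, against 0.59 and 1.26 in untreated lung.

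**Figure D4:**
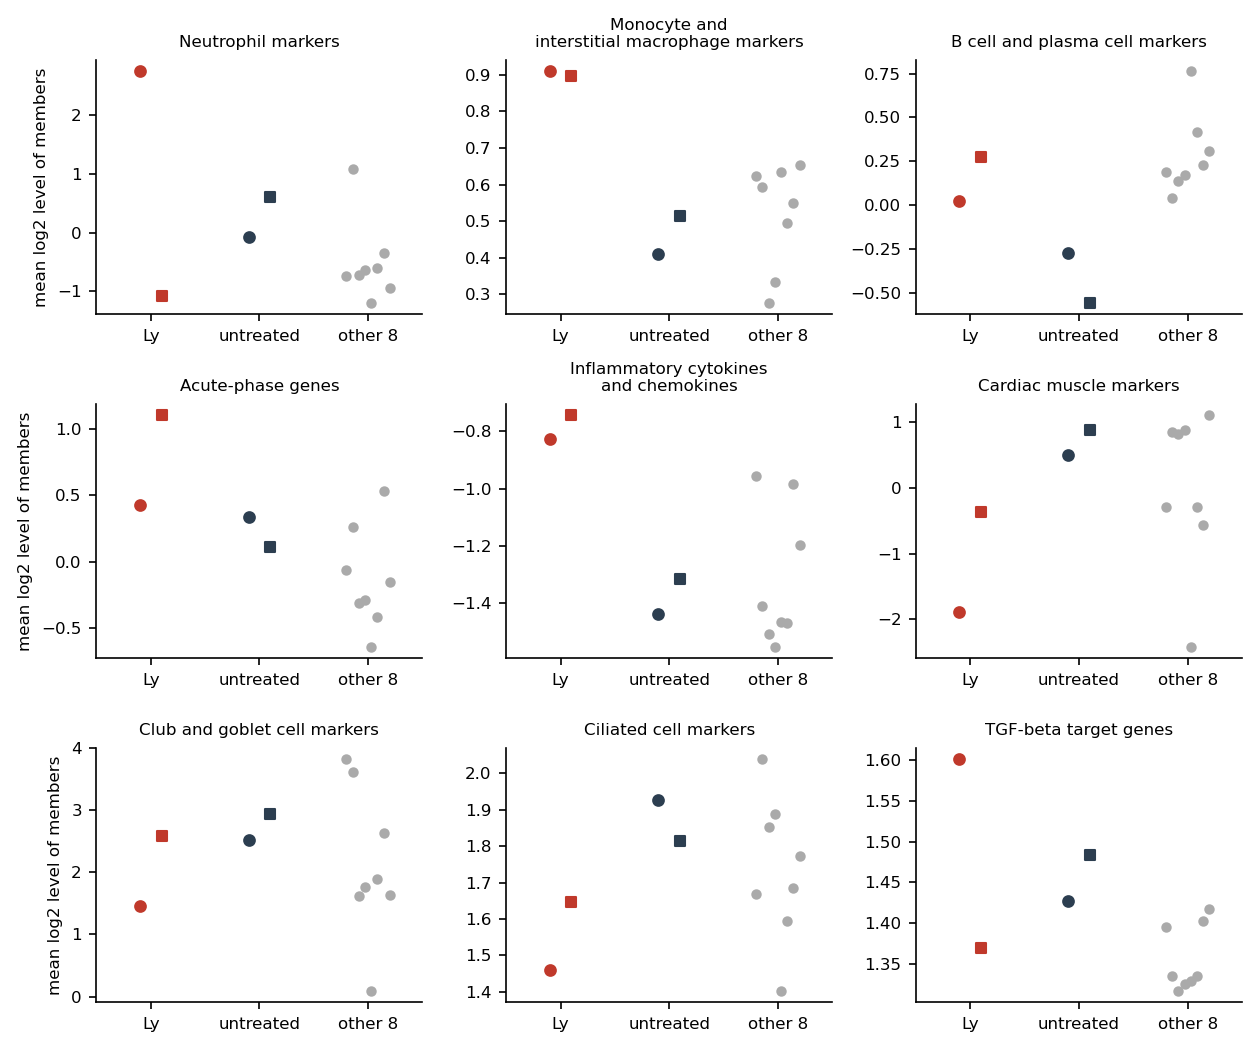
Each panel plots the mean log2 level of the members of 1 list on the 2 Ly arrays (red), the 2 untreated arrays (dark blue) and the other 8 unirradiated arrays (grey), with circles for replicate 1 and squares for replicate 2. The neutrophil panel separates the 2 Ly lungs, at 2.75 and -1.09, and the grey points of the cardiac panel run from -2.42 to 1.09, across both groups; vertical scales differ between panels.

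Erythroid markers had a median of -0.48, or -0.96 without the first Ly array and 0.25 without the second. All 8 had a difference below 0, whereas 45.4% of all genes had one above 0. Only 2 were lower on both Ly arrays, against 18.6% of all genes. The mean level of the erythroid list was 2.21 and 0.91 in Ly lung and 2.01 and 2.03 in untreated lung. The glucocorticoid response genes had a median of -0.31, or -0.09 with the other background correction. Of the 15, 7 were lower on both Ly arrays, against 18.6% of all genes. The mean level of the list was 1.78 and 1.82 in Ly lung and 2.20 and 1.89 in untreated lung. In the other 8 unirradiated lungs it spanned 1.21 to 1.71, below the lungs of both groups. Per1, which is also a clock gene, had log2 levels of 1.92 and 1.96 in Ly lung, against 2.98 and 2.41 in untreated lung. Its level in the other 8 unirradiated lungs spanned 1.20 to 2.26, below both untreated lungs and across both Ly lungs. Lcn2 of the same list was higher in Ly lung. Xenobiotic metabolism genes had a median of -0.19, with 9 of 18 lower on both Ly arrays, against 18.6% of all genes. The median was -0.05 for 31 interferon response genes, 0.03 for 14 hypoxia genes, -0.02 for 20 heat shock and unfolded protein genes and -0.07 for 16 NRF2 targets, the last 2 being 0.23 and 0.06 with the other background correction. None of their members passed, and the smallest p among them was 0.015 unadjusted in limma, for the interferon-induced kinase gene Cmpk2, lower in Ly lung by 0.42. Endothelial markers had a median of -0.10 and fibroblast and pericyte markers one of -0.18; with the other background correction these 2 medians were 0.15 and 0.03.

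Whether Ly had the same effect without and with irradiation was asked by the difference between Ly minus untreated and IR+Ly minus IR, which share no array. The difference passed for 1 gene of 20409, 0.0049%. This was AK034336, an identifier without a symbol here, which was not well above background on any Ly or untreated array and was above it only on the 2 IR arrays of the series (difference 3.17, adjusted p = 0.00816 in limma). At an unadjusted p under 0.05 the difference was positive for 1097 genes and negative for 1129. IR+Ly against IR had 181 called genes, 0.887%. The first IR array correlated least with the other arrays of the series, at a median r of 0.9584, against 0.9754 to 0.9855 for all arrays but this one and the first IR+Ly+Imatinib array. Without the first IR array the difference passed for 6 genes, and without the second for 4460.

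Spp1, osteopontin, a secreted protein of profibrotic macrophages, was among the genes with the smallest p for this difference. In unirradiated lung it had log2 levels of 4.78 and 4.39 with Ly, against 4.94 and 4.74 untreated. In irradiated lung it had 4.44 and 4.55 with Ly, against 7.35 and 6.83 without, a fall of 2.60 that passed the test (adjusted p = 0.00133 in limma). The difference between the 2 effects was 2.35 with an adjusted p of 0.17, the IR arrays being the only ones of the 8 that stood apart. Mmp12 had -3.50 and -3.02 in IR+Ly lung, against -1.27 and -1.03 in IR lung, a fall of 2.11 (adjusted p = 0.041 in limma), beside the value of 1.47 in unirradiated lung. Without the first IR array the adjusted p of that fall was 0.18 in limma. Its difference between the effects, 3.58, had an adjusted p of 0.17 in limma. Aif1, a calcium-binding protein of macrophages, had 1.08 and 1.19 in Ly lung, against 0.74 and 0.55 in untreated lung, and 1.48 and 1.42 in IR+Ly lung, against 2.63 and 2.16 in IR lung. Kcne3, a potassium channel subunit, differed by 0.13 without irradiation and fell by 1.02 with it. Ly6g5c, a gene of the Ly6 family, was not well above background in untreated lung, at least 1.44-fold higher in Ly lung, and fell by 1.52 with irradiation. The falls of Aif1, Kcne3 and Ly6g5c under irradiation passed the test. Without the first IR array Kcne3 passed (adjusted p = 0.038 in limma), and Aif1 and Ly6g5c did not (adjusted p = 0.28 and 0.17).

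The lists with a positive median in Ly against untreated lung did not all behave alike in irradiated lung. For inflammatory cytokines and chemokines the median was 0.52 in unirradiated lung and -0.77 in irradiated lung, and -0.50 there without the first IR array. For acute-phase genes it was 0.66 and -1.30, or -0.62 without the first IR array. For monocyte and interstitial macrophage markers it was 0.54 and -0.53. For B cell markers it was 0.53 and 0.83, the same sign in both. In irradiated lung the difference was above 0 for 4 of 27 cytokine and chemokine genes, 1 of 17 acute-phase genes and 19 of 22 B cell markers, against 46.3% of all genes tested. For TGF-beta targets it was -0.02 and -0.29. The difference between the effects had an unadjusted p under 0.05 for 15 cytokine and chemokine genes in the positive and 1 in the negative direction, and for 12 acute-phase genes in the positive direction, beside 1097 positive and 1129 negative of the 20409 genes tested, and passed for none of them after adjustment. Without the first IR array these counts were 8 and 1 for cytokines and chemokines and 8 for acute-phase genes. Lcn2 had an effect of 1.37 in unirradiated lung and -1.83 in irradiated lung (difference 3.20, adjusted p = 0.25 in limma), and Ccl9 1.09 and -1.19 (difference 2.28, adjusted p = 0.23 in limma).

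**Figure D5:**
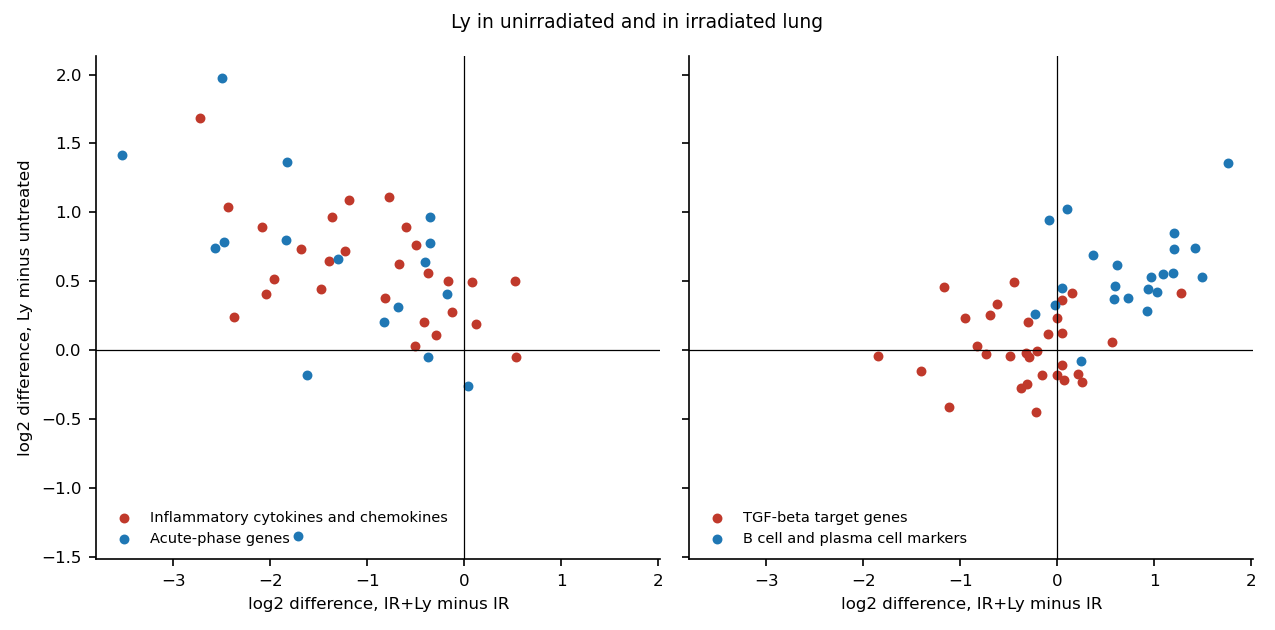
Each point is a gene of the lists named in the panels, with the log2 difference IR+Ly minus IR on the x axis and Ly minus untreated on the y axis. Most cytokine, chemokine and acute-phase genes lie at upper left, while B cell genes lie at upper right. Cytokine and acute-phase medians are 0.52 and 0.66 on the y axis and -0.77 and -1.30 on the x axis. With another background correction the cytokine median on the y axis is -0.16 and that of all genes -0.25.

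The effect of Ly was also set against its effect beside a kinase inhibitor, the mean of Ly+Imatinib minus Imatinib and Ly+Su minus Su in unirradiated lung. This difference passed for 305 genes, 1.49%: 11 positive (0.0539%) and 294 negative (1.44%). Ly+Imatinib against Imatinib and Ly+Su against Su called 3.91% and 3.33% of all genes. In that design the arms with and without Ly lay on different slides, so that slide and Ly cannot be told apart there, whereas Ly and untreated lung shared a slide. For the 305 genes the median was -0.10 in Ly against untreated lung, 1.79 in Ly+Imatinib against Imatinib and 1.68 in Ly+Su against Su. Of them, 40.3% were well above background on all 4 Ly and untreated arrays, against 79.9% of all genes tested. Slc17a2, a phosphate transporter family gene, had log2 levels of -3.93 and -3.58 in Ly lung, against -3.88 and -3.95 in untreated lung, and rose by 1.93 and 1.79 in the combined arms. Its difference of the effects was -1.70 (adjusted p = 1.6e-04 in limma). Kif15 was among the 11 positive ones, at least 2.07-fold higher in Ly lung, where untreated lung was not well above background, and with fitted differences of 0.22 and 0.43 beside Imatinib and Su (adjusted p = 0.046 in limma). For Smad7, Tgfb1 and Col1a1 the same difference lay between -0.16 and 0.27, and none of them passed.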

How the data were processed

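Total RNA of frozen mouse lung was labelled with Cy3 and hybridised to 24 single-colour Agilent arrays, per the labels. The deposited values are processed intensities made by Agilent Feature Extraction 9.1.3.1, per the file headers, with background already subtracted and no scaling between arrays. From these, log2 of the intensity minus that of each array's 75th percentile was computed, control spots were left out, spots of a probe were averaged, and the probe of highest mean level stood for each gene. Of 27401 genes, 20409 that were well above background on both arrays of at least 1 of the 12 groups were tested. Symbols came from the RefSeq table of GRCm38.p6 where an accession or symbol matched, and otherwise from the files.

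A linear model of 12 group means over all 24 arrays was fitted with limma 3.58.1 in R 4.3.3 (12 residual degrees of freedom), with Benjamini-Hochberg adjustment over all genes tested and a threshold of 0.05. Contrasts were Ly minus untreated, and its difference from the effect of Ly in irradiated lung and beside Imatinib and Su. A gene not well above background on any array of 1 group is given as a bound, the mean of its brighter group against a floor for the dimmer one (on each array, the higher of the lowest signal among probes well above background and the probe's own signal). The limma step was tested on simulated data. The labels call the replicates biological. The p-values measure the spread between lungs within groups, pooled over all 12 groups, irradiated ones included, and not only over the 4 lungs compared. With the 12 unirradiated arrays alone, 1615 genes had an unadjusted p under 0.05 in limma for Ly against untreated, beside 1159 with all 24. The "other background correction" is normexp on the mean and background signals, with an offset of 50; it moved the median difference of all genes to -0.25.

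The groups and gene lists were chosen with earlier results of these data known. Named were the 10 smallest p in each direction, the member of smallest p of a list, 25 genes of TGF-beta signalling, matrix and response, and the 5 smallest p of each difference of effects; other list members were picked as examples after their values were seen. Not every list or gene under that rule is described, and 1 of the 25 is not reported here.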

Additional observations from a re-analysis of the deposited data

Results flagged for a closer look

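The effect of Ly differed between unirradiated and irradiated lung for 1 gene by limma's test of that difference, AK034336, at 3.17 on the log2 scale; it was above background only on the 2 IR arrays. Between lungs without and with a kinase inhibitor the effect differed for 305 genes by the same kind of test. The differences, no kinase inhibitor minus kinase inhibitor, were -3.38 for Tm4sf4, -2.69 for Evx2, -2.20 for Setdb2, -1.70 for Slc17a2 and -3.20 for Olfr1232. These are fitted values: Evx2 and Olfr1232 were well above background on none of the 4 Ly and untreated arrays, Setdb2 on neither Ly array and Tm4sf4 on 1 of the 2, so that their sizes rest on signal near background. The arms with and without Ly beside a kinase inhibitor lay on different slides, so that slide and Ly cannot be told apart in them.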

How the results depend on the processing

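Ly against untreated called 1 gene, ENSMUST00000076729. With normexp and with array weights the adjusted p of this transcript was 0.55 and 0.24 in limma. The comparison still called 1 gene in each of these settings, but another one, higher in Ly lung with normexp and lower with array weights. It called 8 after quantile normalization, with the 12 unirradiated arrays alone, and without the first IR and first IR+Ly+Imatinib arrays, 3 among genes above background on both arrays of either group, and 0 among genes above background on all 4 arrays, with a trended robust prior, or with the 4 arrays alone (895, 1208 and 807 at an unadjusted p under 0.05 in limma). Leaving out 1 array gave 0 to 41. The transcript ENSMUST00000076729 had a difference of -0.71 with normexp, and its adjusted p ran from 0.00109 to 0.77 over the alternatives in limma; the cause was not tested. The difference from irradiated lung called 1 gene, 2 after quantile normalization, and 0 with normexp (6220 at an unadjusted p under 0.05), array weights (766), a trended robust prior and both stricter background filters; leaving out 1 array gave 2 to 4460. The difference from the kinase inhibitor arms called 305 genes, 8974 with normexp, 105 and 152 with the stricter filters, 201 with a trended robust prior, and 141 to 435 with 1 array left out. The labels pair no animals; with a replicate block the 3 counts were 1, 1 and 301. Both arrays of each group shared a slide, so slide as a random block could not be estimated. Of the values of the 92 named genes, 1451 kept their direction and side of the threshold. A further 58 changed direction without passing in either setting, 22 came to pass, 5 ceased to pass and 1 reversed. Array number limits the precision, and fitted differences of genes not well above background in a group depend on signal near background.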
